A study of Arabidopsis thaliana with 24 samples.

Results

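The hypoxia response of seedlings that carry the vq10 allele was compared with that of seedlings that do not, over all 24 libraries of an Arabidopsis thaliana RNA-seq series. The 12 libraries labelled vq10 or vq1vq10 (6 hypoxic and 6 normoxic, called carriers) were set against the 12 labelled Col-0 or vq1 (6 hypoxic and 6 normoxic, called non-carriers). The quantity tested for each of 20110 genes was the response (log2 of hypoxia over normoxia) in carriers minus that in non-carriers, with the vq1 label and its own effect on the response held in the model. The 4 genotypes were vq10, the double mutant vq1vq10, vq1 and the wild type Col-0, the mutants being hypermorphic (of raised gene activity) per the series title, each with 3 biological replicates per oxygen level. All seedlings grew whole in MS medium with 1% sucrose for 14 days at 21% oxygen, under 16 h of light at 150 µmol and 8 h of dark. On day 15, from 4 h after the lights came on, they spent 4 h in dim light of 30 µmol, at 1% oxygen in the hypoxic groups and at 21% oxygen in the normoxic groups. How the alleles were made is not given in the sources used here.

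VQ proteins are small plant proteins named for a conserved valine-glutamine motif, and many of them bind WRKY transcription factors and change how those act on defence and stress genes. Plants sense low oxygen through the N-degron pathway. Group VII ethylene response factors are destroyed when oxygen is plentiful and, when it is scarce, switch on fermentation and a small set of core hypoxia genes. Aliphatic glucosinolates, which return several times below, are methionine-derived sulfur compounds that defend plants of the cabbage family against herbivores.

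Levels are in CPM, read counts scaled to a common library total after TMM normalisation, and each set of 6 libraries is given by its lowest, median and highest value. Differences in response are on the log2 scale with their standard error after ±. An adjusted p is from edgeR's quasi-likelihood test with Benjamini-Hochberg adjustment over the 20110 genes, and a gene was called where it lay under 0.05. Libraries held 21150032 to 22645177 reads. The 37 nuclear photosynthesis genes of the list used here summed to between 184560 and 267950 CPM over the 24 libraries. The root hair marker list was also present, while the flower markers AP1, AG, AP3 and LFY had 12, 35, 60 and 98 reads over all libraries together and SAG12, 1 of 5 senescence markers, had 2. In whole seedlings, fewer cells of a type and less RNA per cell cannot be told apart.

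VQ10 (AT1G78410) was checked first. Its level was 1.04, 1.38 and 1.63 CPM in hypoxic carriers, against 0.102, 0.357 and 0.859 CPM in hypoxic non-carriers. In normoxia it was 1.38, 2.1 and 2.46 CPM in carriers, against 0.168, 0.308 and 0.545 CPM in non-carriers. At both oxygen levels every carrier library lay above every non-carrier library. VQ10 was higher in carriers by 1.75 ± 0.32 on the log2 scale in hypoxia (adjusted p = 0.0132) and by 2.57 ± 0.30 in normoxia (adjusted p = 5.3e-05). The difference in its response was -0.82, with a 95% interval of -1.76 to 0.12.

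For VQ1 (AT1G17147) the 12 libraries with the vq1 label (vq1 and vq1vq10) did not stand above the rest. The gene had 3.32, 3.96 and 4.8 CPM in hypoxia, against 3.16, 4.2 and 5.73 CPM in libraries without that label, and 2.29, 3.28 and 4.25 CPM in normoxia, against 3.03, 4.74 and 5.41 CPM. The ranges overlapped at both oxygen levels, so the libraries are named below by their vq1 label. The difference in the response of VQ1 between carriers and non-carriers was 0.05 ± 0.26.

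A run of 5 genes beside VQ10 on chromosome 1 (AT1G78420, RIP4, ATGA2OX1, AT1G78450 and AT1G78460) was low in all 12 carrier libraries. Within the carriers, it set 3 libraries apart. Summed over the run, 9 carrier libraries had 1 to 8 reads, while replicates 2 and 3 of hypoxic vq10 had 230 and 232 reads and replicate 3 of normoxic vq10 had 724. The 12 non-carrier libraries had 2945 to 5677 reads. Carriers share the higher level of VQ10 and the low level of the run, so the parts of these cannot be told apart here. No difference in response is given for the 5 genes. Without these 3 vq10 libraries the hypoxic difference of VQ10 (AT1G78410) had an adjusted p of 0.136. Results that rest on them are given with and without them, an alternative chosen after seeing the data.

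No gene passed the adjusted threshold for a different response: 0 of 20110 were called, which is 0%, and the smallest adjusted p was 0.482. At an unadjusted p under 0.05 there were 1725 genes, 8.58% of those tested. Of these 803 (3.99%) had a more positive response in carriers and 922 (4.58%) a more negative one. Without the 3 vq10 libraries that had reads in the run the number was 888, with 446 more positive and 442 more negative. Without replicate 3 of normoxic vq1 the more negative genes numbered 566. DESeq2 called 1 gene, PRA1.F4.

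Over all genes the median difference was -0.01, with 48.3% of genes positive, with the 5th percentile at -0.40 and the 95th at 0.47. The median 95% interval reached 0.21 to either side for genes with a mean log2 CPM over 5, 0.42 for those from 1 to 3 and 1.1 for those under 0. The vq1 label gave 0 called genes in the same model (0%; smallest adjusted p = 0.249) and 1129 at an unadjusted p under 0.05 (5.61%), a number that reached 2311 without replicate 3 of hypoxic Col. Whether the vq10 difference itself differed between seedlings with and without the vq1 label was tested with a three-way term, which also called 0 genes (0%) and left 643 at an unadjusted p under 0.05 (3.2%).

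Both sets of seedlings responded broadly to 4 h at 1% oxygen. In carriers 5029 genes rose (25%) and 5059 fell (25.2%), and in non-carriers 5462 rose (27.2%) and 5393 fell (26.8%). Across genes the responses of carriers and non-carriers, which share no library, had a Pearson r of 0.914. Of 8244 genes called in both, 3 moved in opposite directions. ADH1, the alcohol dehydrogenase of ethanol fermentation, had a response of 6.77 in carriers and 6.23 in non-carriers, a difference of 0.54 ± 0.42.

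Among the 1725 genes, the commonest forms of the difference were a response called in non-carriers alone. For 297 of them (17.2%, against 6.76% of all tested genes) a fall was called in non-carriers only, and for 294 (17%, against 6.22%) a rise. Calls in carriers only were also more common than among all tested genes: 199 falls (11.5%, against 5.11%) and 149 rises (8.64%, against 4.06%). The 1725 were picked by the difference between these same responses. That favours calls in carriers only or in non-carriers only, so these shares are no test. A rise called in both sets was smaller in carriers for 216 genes, 12.5% against 12.7% of all tested genes, and larger for 94, 5.45% against 8.23%. The absolute difference between carriers and non-carriers was larger in hypoxia than in normoxia for 1424 of the 1725 (82.6%), against 64.3% of all tested genes.

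**Figure D1:**
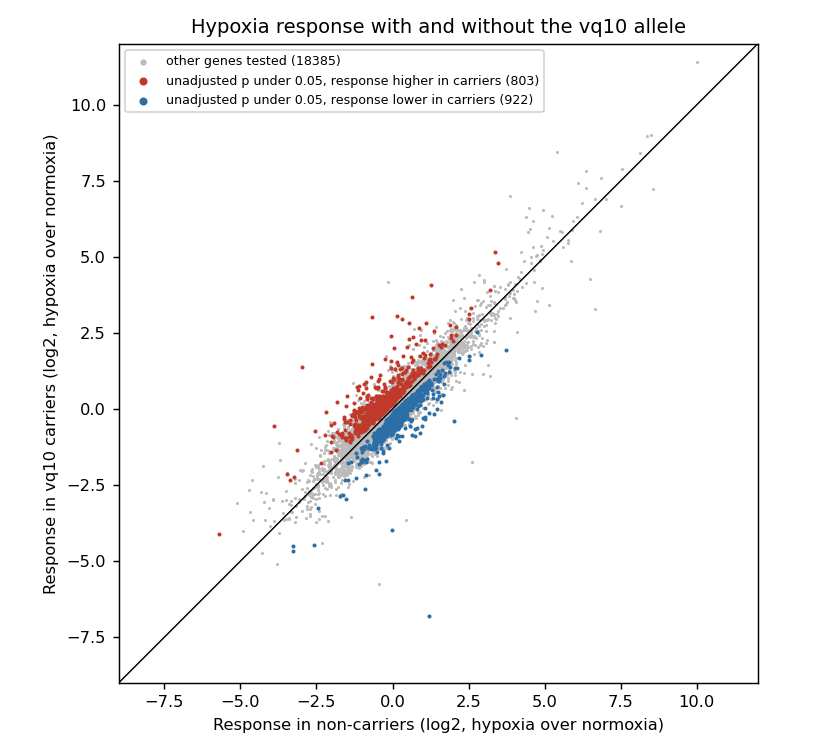
Response of each tested gene (log2 of hypoxia over normoxia), with carriers of the vq10 allele on the vertical axis and non-carriers on the horizontal axis; coloured points are the 803 and 922 genes at an unadjusted p under 0.05. Most genes lie near the diagonal (r = 0.914), and no gene passed the adjusted threshold for a difference.

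Within one oxygen level the same model did call genes. Between hypoxic carriers and hypoxic non-carriers 47 genes were called (0.234%), 27 higher and 20 lower in carriers. Of these, 5 were the run beside VQ10 and 30 also had a response difference at an unadjusted p under 0.05, beside 8.58% of all tested genes. The response difference is the hypoxic difference minus the normoxic one, from the same libraries. Picking genes by the hypoxic difference favours it, so this share is no test. Between normoxic carriers and normoxic non-carriers 11 genes were called (0.0547%), of which 5 were the run and 0 had a response difference at an unadjusted p under 0.05. At an unadjusted p under 0.05 the hypoxic comparison had 2920 genes (14.5%) and the normoxic one 658 (3.27%).

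The number of hypoxic calls changed with the libraries left out, more for some genes than for others. BAT5, FLC and AT1G76520 were called in each of the 24 fits without 1 library. AT2G35480 and AT4G27020 were called in 8 of these fits. The number of calls moved as follows. Without the 3 vq10 libraries with reads in the run 11 remained, 4 of them from the run. AT1G78476 and CYP708A3, the next tested genes past the run on chromosome 1, were among the rest. Over all libraries their differences were -3.92 and -4.02 on the log2 scale. The others were OPCL1, RLP19, COR413-PM2, AT5G24240 and AT5G35940. The run was bounded by the rule of 5 tested neighbours on either side of VQ10, so counts of the run leave out AT1G78476 and CYP708A3. The fit without the 3 vq10 libraries kept only replicate 1 of hypoxic vq10, so it had less power. Leaving out replicate 2 of hypoxic vq10 left 22 calls, and leaving out replicate 1 of hypoxic vq10 gave 141. The number was also below 30 without replicate 1 of hypoxic Col (26) or replicate 1, 2 or 3 of hypoxic vq1vq10 (29, 29 and 27). It was 82 without replicate 2 of hypoxic Col, 77 without its replicate 3 and 82 without replicate 1 of normoxic vq1vq10. DESeq2 called 183.

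The list with the highest median difference was that of aliphatic glucosinolate synthesis. All 23 tested members had a more positive response in carriers, with a median difference of 0.86, against a median of -0.01 over all tested genes. None passed the adjusted threshold, and 15 had an unadjusted p under 0.05, all more positive, beside 3.99% of all tested genes in that direction. Summed over the list, hypoxic carriers had 862, 891 and 939 CPM, against 529, 632 and 727 CPM in hypoxic non-carriers. In normoxia the sums were 647, 792 and 1132 CPM in carriers, against 515, 783 and 1174 CPM in non-carriers. The hypoxic ranges did not overlap and the normoxic ranges did.

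The list thus parted at low oxygen. For 15 of the 23 members every hypoxic carrier library lay above every hypoxic non-carrier library, where 0.443% of all tested genes did so. For 0 members did the normoxic libraries part in this way, where carriers lay above for 0.0646% of all genes and below for 0.164%. The median response of the list was 0.08 in carriers, with 2 members up and 2 down, and -0.77 in non-carriers, with 2 up and 14 down. Of all tested genes 25% rose and 25.2% fell in carriers, and 27.2% rose and 26.8% fell in non-carriers. By genotype the median response was 0.08 in vq10 and 0.12 in vq1vq10, against -1.06 in Col-0 and -0.39 in vq1. Without the 3 vq10 libraries the median difference was 0.77 and 12 members had an unadjusted p under 0.05. With each library left out in turn it ranged from 0.57, without replicate 1 of normoxic Col, to 1.00, with 23 positive members each time.

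The transporter BAT5 and the regulator MYB29 were the members chosen by rank over all genes. BAT5 carries the 2-oxo acids of methionine chain elongation into the chloroplast. It had 6.72, 7.42 and 8.3 CPM in hypoxic carriers, against 2.35, 3.53 and 4.67 CPM in hypoxic non-carriers. In normoxia it had 5.63, 7.82 and 10.7 CPM in carriers, against 4.96, 8.47 and 13.1 CPM in non-carriers. The hypoxic libraries did not overlap, and the normoxic range of non-carriers enclosed that of carriers. The response of BAT5 was -0.15 in carriers and -1.28 in non-carriers, a difference of 1.13 ± 0.28 (unadjusted p = 0.00039, adjusted p = 0.482). In hypoxia alone it was higher in carriers by 1.14 (adjusted p = 0.0118), and the adjusted p was 0.0694 without the 3 vq10 libraries.

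MYB29, with MYB28 and MYB76, encodes a MYB transcription factor that activates the aliphatic genes. MYB29 had 3.94, 4.8 and 5.36 CPM in hypoxic carriers, against 1.47, 2.1 and 3.09 CPM in hypoxic non-carriers. In normoxia it had 2.67, 3.3 and 5.05 CPM in carriers, against 2.19, 3.73 and 7.45 CPM in non-carriers. Again only the hypoxic libraries parted. The difference in response was 1.25 ± 0.31 for MYB29 (unadjusted p = 0.00047, adjusted p = 0.482), 0.54 ± 0.14 for MYB28 and 1.43 for MYB76. MYB28 had 27.4, 30.3 and 34.4 CPM in hypoxic carriers, against 17.8, 23 and 23.8 CPM in hypoxic non-carriers, with no overlap. MYB76 was low, at 0.320, 0.730 and 1.2 CPM in hypoxic carriers, against 0, 0.407 and 0.749 CPM in hypoxic non-carriers, with overlap.

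The stretches upstream of BAT5 and MYB29 are shown because these 2 genes, a transporter and a regulator of the pathway, both parted between carriers and non-carriers in hypoxia. Each is the 250 bases before the annotated start of the gene in RefSeq's TAIR10.1, 5′ to 3′ on the strand of the gene, and neither holds another annotated gene. BAT5 lies on the plus strand with its stretch at chr4:7210557-7210806, and MYB29 on the plus strand with its stretch at chr5:2446419-2446668.
BAT5: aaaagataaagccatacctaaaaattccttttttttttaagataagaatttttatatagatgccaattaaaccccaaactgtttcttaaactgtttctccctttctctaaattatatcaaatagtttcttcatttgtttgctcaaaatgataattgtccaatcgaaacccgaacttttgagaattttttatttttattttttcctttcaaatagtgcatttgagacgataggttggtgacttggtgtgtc
MYB29: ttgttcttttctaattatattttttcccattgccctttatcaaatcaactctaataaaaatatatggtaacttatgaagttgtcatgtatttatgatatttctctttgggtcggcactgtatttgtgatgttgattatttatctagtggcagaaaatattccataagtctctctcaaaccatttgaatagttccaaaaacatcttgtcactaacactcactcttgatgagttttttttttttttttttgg
The stretches are in lower case because none of 3 motifs searched on both strands was present: the G-box CACGTG, the WRKY-type W-box cores TTGACC and TTGACT, and TATCCA. Over the list, CACGTG stood in 3 of 23 stretches (13%), against 7.37% of those of all tested genes. TTGACC or TTGACT stood in 4 of 23 (17.4%), against 28.5%. A missing match says only that these letters are not in the window.

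Of 4 enzymes of the pathway described here, all parted in hypoxia. BCAT4, which opens methionine chain elongation, had 22.1, 30.1 and 34.3 CPM in hypoxic carriers, against 9.29, 15.6 and 18.8 CPM in hypoxic non-carriers (difference in response 0.90). CYP79F1, which makes the aldoxime that begins the core structure, had 15.2, 19.7 and 24.4 CPM, against 4.29, 5.76 and 8.79 CPM (1.60). CYP83A1, the next P450, had 62.5, 65.4 and 69 CPM, against 28.3, 39.2 and 47.5 CPM (0.71). In none of these 3 genes did the hypoxic libraries overlap. FMO GS-OX1, which oxidises the side chain, had 10.2, 11.1 and 12.6 CPM in hypoxic carriers, against 2.88, 4.25 and 5.87 CPM in hypoxic non-carriers (1.29), again without overlap.

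The hypoxic libraries of CYP79F2, GSTF11, GSTU20, MAM1, IMS2, BCAT3, IIL1 and MYB76 overlapped, and those of the other 15 members did not. The differences in response of the members not yet given were 0.98 and 1.03 for the isomerase subunits IPMI2 and IPMI1, 1.02 for CYP79F2, 1.05 for FMO GS-OX3, 0.90 and 0.47 for the sulfotransferases SOT17 and SOT18 and 0.47 for the C-S lyase SUR1. They were 0.86 and 0.66 for the glutathione transferases GSTF11 and GSTU20 and 0.58 for IMD1, each above an unadjusted p of 0.05. The smallest were 0.33 for MAM1, 0.26 for IMS2, 0.19 for BCAT3, 0.14 for IIL1 and 0.13 for AT2G31790. In hypoxia alone 6 members of the list were called higher in carriers: BAT5, SUR1, MYB28, MYB29, SOT17 and BCAT4. Without the 3 vq10 libraries 0 were called, and DESeq2 called 12 with all libraries.

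**Figure D2:**
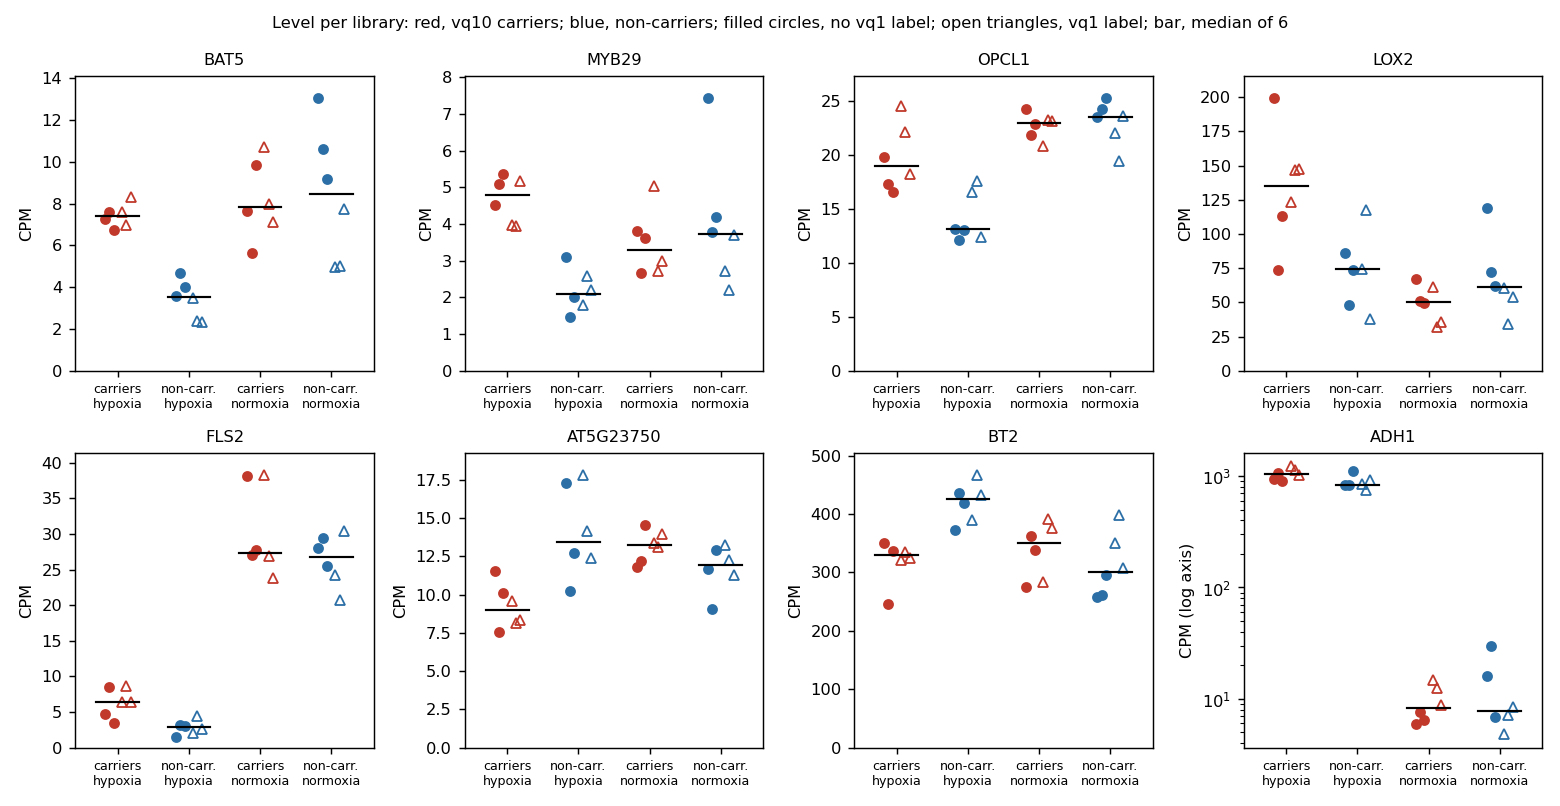
CPM of 8 genes in each library, carriers in red and non-carriers in blue, hypoxia left of normoxia; open triangles carry the vq1 label, bars are medians of 6, and the ADH1 axis is logarithmic. The hypoxic carriers stand above the hypoxic non-carriers without overlap in BAT5 (6.72 to 8.3 against 2.35 to 4.67 CPM) and MYB29, and below them in BT2 (247 to 350 against 373 to 467 CPM).

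Genes of indole glucosinolates and the related phytoalexin camalexin, which are made from tryptophan, were more positive in carriers for 13 of 17 tested members (median difference 0.25; 48.3% of all genes positive), with 5 at an unadjusted p under 0.05, beside 3.99% of all genes. The median was 0.39 without replicate 3 of hypoxic Col, 0.38 without replicate 3 of hypoxic vq1vq10 and 0.41 without replicate 1 of normoxic vq10. UGT74B1, the glucosyltransferase of the glucosinolate core, had 29.7, 36.9 and 42.9 CPM in hypoxic carriers, against 18, 22.9 and 28.6 CPM in hypoxic non-carriers. These ranges did not overlap, and the difference in response was 0.64 ± 0.18. The sulfotransferase SOT16 had 46.1, 56.8 and 76.4 CPM, against 32.7, 39.4 and 58.9 CPM, with overlap and a difference of 0.59 ± 0.19. Sulfate assimilation, which feeds the pathway, had a median difference of 0.29 over 12 tested genes, 9 of them positive (48.3% of all genes). ATP sulfurylase APS1 had 235, 256 and 277 CPM in hypoxic carriers, against 204, 208 and 220 CPM in hypoxic non-carriers, and a difference of 0.31, while that of APS3 was 0.51. In that list 3 genes had an unadjusted p under 0.05, beside 3.99% of all genes, a number that ran from 1 to 6 as single libraries were left out, 14 of which moved it (highest without replicate 1 of normoxic vq1vq10).

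Genes that mark sugar starvation had values of the other sign. They include asparagine synthetase, trehalose phosphate synthase-like proteins and enzymes that break down branched-chain amino acids. Of 21 tested members 20 had a more negative response in carriers, with a median difference of -0.37, and 0 passed the adjusted threshold. An unadjusted p under 0.05 was reached by 14, all more negative, beside 4.58% of all tested genes in that direction. Without the 3 vq10 libraries 4 reached it and the median was -0.29. Leaving out replicate 2 of normoxic Col left 8, and leaving out replicate 2 of normoxic vq10 left 9.

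The median response of the list was 0.11 in carriers, with 6 members up and 2 down, and 0.44 in non-carriers, with 14 up and 1 down. Of all tested genes 25% rose and 25.2% fell in carriers, and 27.2% rose and 26.8% fell in non-carriers. By genotype the median response of the list was 0.01 in vq10 and 0.22 in vq1vq10, against 0.59 in Col-0 and 0.36 in vq1. Summed levels were 6278, 7888 and 8837 CPM in hypoxic carriers, against 8343, 9551 and 10691 CPM in hypoxic non-carriers. In normoxia they were 6315, 7742 and 8917 CPM in carriers, against 5523, 6859 and 9114 CPM in non-carriers. The summed levels overlapped at both oxygen levels.

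BT2, a BTB and TAZ domain protein induced by low sugar, was the member chosen by rank over all genes. It had 247, 330 and 350 CPM in hypoxic carriers, against 373, 426 and 467 CPM in hypoxic non-carriers, and 275, 350 and 391 CPM in normoxic carriers, against 258, 301 and 398 CPM in normoxic non-carriers. Every hypoxic carrier lay below every hypoxic non-carrier, and the normoxic libraries overlapped. The response of BT2 was -0.08 in carriers and 0.44 in non-carriers, a difference of -0.52 ± 0.14 (unadjusted p = 0.00081, adjusted p = 0.482). ASN1, a glutamine-dependent asparagine synthetase, had 1116, 1284 and 1625 CPM in hypoxic carriers, against 1579, 1770 and 1939 CPM in hypoxic non-carriers. Those ranges overlapped slightly, and the difference in response was -0.55 ± 0.21.

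Class II trehalose phosphate synthase-like genes, which respond to sugar status, had values of the same sign. The difference in response was -0.34 for TPS8, -0.30 for TPS9, -0.30 ± 0.10 for TPS10 and -0.40 for TPS11. TPS10 had 210, 251 and 293 CPM in hypoxic carriers, against 240, 287 and 305 CPM in hypoxic non-carriers, with overlap. The difference was -0.42 for DIN10, -0.42 for MCCA and -0.40 for IVD, the last 2 being enzymes of leucine breakdown. DIN11 was the 1 member with a positive value, 0.72.

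The 250 bases upstream of BT2 and TPS10 are shown because TATCCA, an element tied to sugar-regulated genes, stood in 6 of 21 stretches of the list (28.6%) and in 14.2% of those of all tested genes. In the aliphatic list it stood in 2 of 23 (8.7%). Both genes are on the minus strand, BT2 with its stretch at chr3:17910739-17910988 and TPS10 at chr1:22181741-22181990, each printed 5′ to 3′ on the strand of the gene. Capitals mark the motif, on the gene strand in BT2 and, as TGGATA, on the other strand in TPS10. In both it began 7 bases before the annotated start.
BT2: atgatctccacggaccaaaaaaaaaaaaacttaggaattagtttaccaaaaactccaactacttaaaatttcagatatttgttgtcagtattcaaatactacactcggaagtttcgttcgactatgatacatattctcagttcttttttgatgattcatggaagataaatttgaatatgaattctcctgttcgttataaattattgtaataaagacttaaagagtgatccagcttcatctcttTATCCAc
TPS10: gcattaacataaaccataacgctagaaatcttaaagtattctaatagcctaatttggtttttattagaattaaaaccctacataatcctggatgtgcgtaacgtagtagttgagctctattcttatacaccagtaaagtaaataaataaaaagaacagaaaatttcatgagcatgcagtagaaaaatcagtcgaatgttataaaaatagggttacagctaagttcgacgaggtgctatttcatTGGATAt
A match is a description of the letters and says nothing of binding. CACGTG stood in 2 of the 21 (9.52%) and TTGACC or TTGACT in 5 (23.8%).

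**Figure D3:**
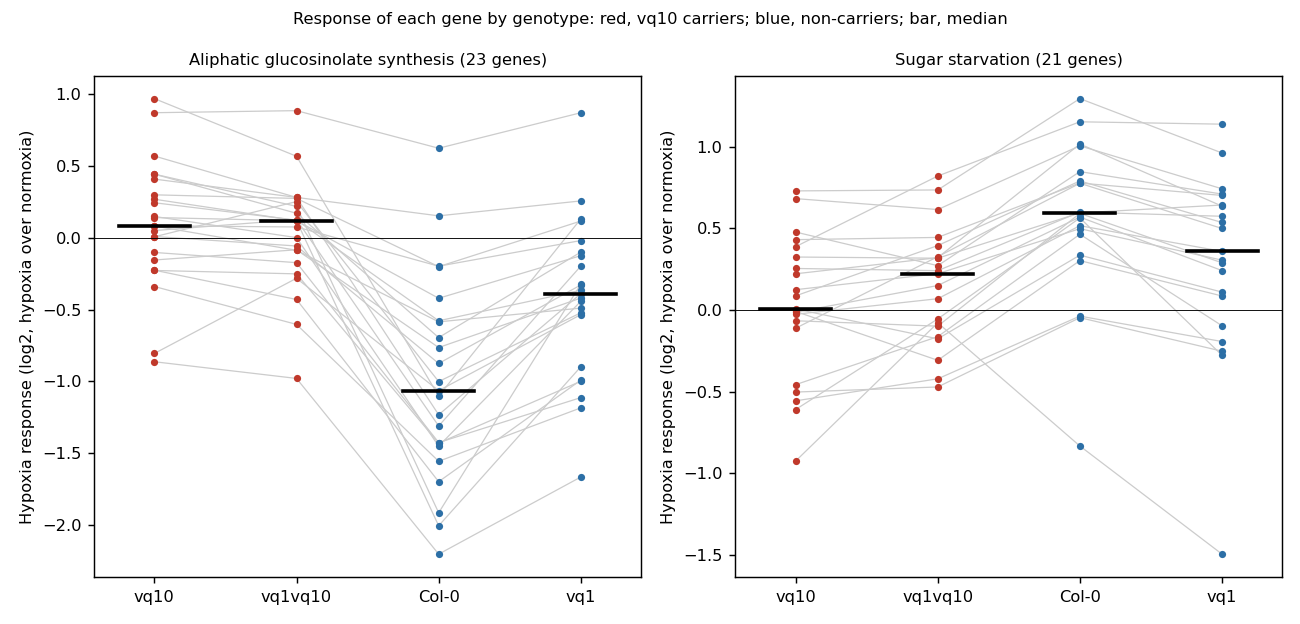
Hypoxia response (log2) of each gene of the aliphatic glucosinolate list (23 genes) and the sugar starvation list (21 genes) by genotype, carriers in red and non-carriers in blue, with medians as bars. The aliphatic medians are 0.08 and 0.12 in vq10 and vq1vq10, against -1.06 in Col-0 and -0.39 in vq1, and the sugar starvation medians 0.01 and 0.22, against 0.59 and 0.36.

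The difference was next read in each background, which share no library. For vq10 against Col-0, 0 genes were called and 1654 had an unadjusted p under 0.05. For vq1vq10 against vq1, 0 were called and 746 had one. The aliphatic list had a median difference of 1.14 for vq10 against Col-0 and 0.44 for vq1vq10 against vq1, and the sugar starvation list -0.52 and -0.23. Fitted on their own 12 libraries, vq10 and Col-0 gave 18 of 23 aliphatic members at an unadjusted p under 0.05, beside 1179 of all 20110 genes. Fitted in the same way, vq1vq10 and vq1 gave 1 of 23, beside 1031 of all 20110 genes.

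Over all 20110 genes the 2 background-specific differences had a Pearson r of 0.128 and a Spearman rho of 0.20, and 58.4% had the same sign. Of the 1654 genes 69.8% had the same sign in the other background. There were 103 genes at an unadjusted p under 0.05 in both, 45 positive in both, 38 negative in both and 20 opposite. These were 6.23% of the vq10 list, while 746 of all 20110 genes reached that p for vq1vq10 against vq1. They were 13.8% of the vq1vq10 list, while 1654 of all 20110 genes reached it for vq10 against Col-0. ADH1 was among the genes whose 2 values had opposite signs, 1.46 for vq10 against Col-0 and -0.41 for vq1vq10 against vq1.

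**Figure D4:**
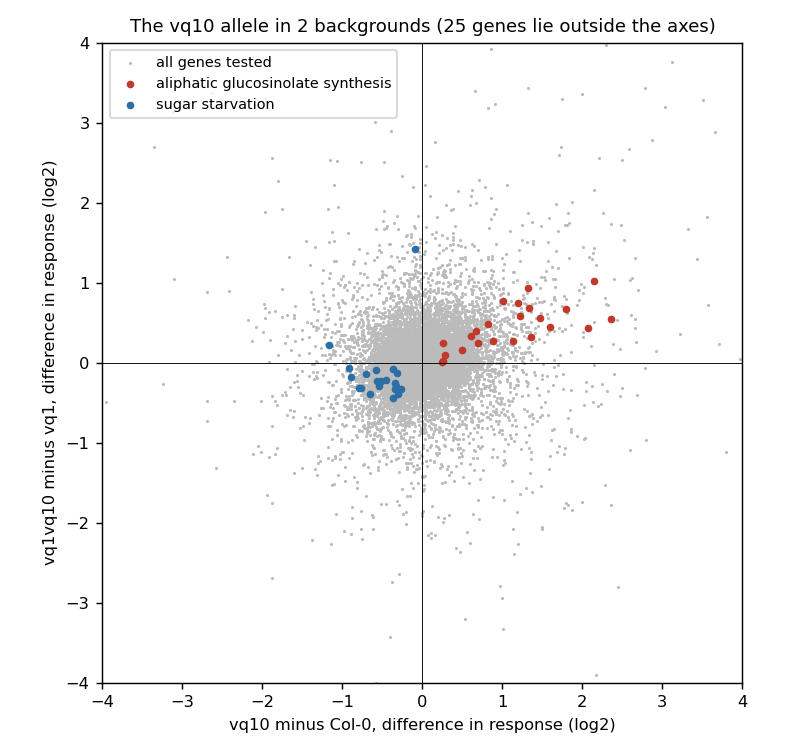
Difference in response (log2) of vq10 against Col-0 on the horizontal axis and of vq1vq10 against vq1 on the vertical axis, 1 point per tested gene, with the aliphatic glucosinolate and sugar starvation lists coloured and 25 genes outside the axes. The aliphatic list lies to the upper right (medians 1.14 and 0.44) and the sugar starvation list mostly to the lower left (-0.52 and -0.23).

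Of 28 tested jasmonate genes 24 had a more positive response in carriers (48.3% of all genes did), with a median difference of 0.25. An unadjusted p under 0.05 was reached by 6 that were more positive and 1 that was more negative, beside 3.99% and 4.58% of all genes. In carriers 17 of them rose in hypoxia, where 25% of all genes rose, and in non-carriers 7, where 27.2% did. LOX2, the chloroplast lipoxygenase that starts jasmonate synthesis, had 73.8, 135 and 200 CPM in hypoxic carriers, against 37.8, 74.2 and 118 CPM in hypoxic non-carriers. In normoxia it had 32.1, 50.4 and 67.4 CPM in carriers, against 34.4, 61.1 and 119 CPM in non-carriers. The ranges overlapped at both oxygen levels. The difference in response of LOX2 was 1.28 ± 0.35 (unadjusted p = 0.0012).

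OPCL1 activates jasmonate precursors for beta-oxidation. It had 16.6, 19 and 24.5 CPM in hypoxic carriers, against 12.1, 13.1 and 17.6 CPM in hypoxic non-carriers, and 20.8, 23 and 24.3 CPM in normoxic carriers, against 19.4, 23.5 and 25.3 CPM in normoxic non-carriers. The highest hypoxic non-carrier lay just above the lowest hypoxic carrier. The difference in response was 0.50 ± 0.11 (unadjusted p = 0.00022), and within hypoxia OPCL1 was higher in carriers by 0.48 (adjusted p = 0.00906), called in each of 24 fits that left out 1 library and, at 0.0438, without the 3 vq10 libraries.

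Pattern-recognition receptors, which detect microbial molecules at the cell surface, had 15 of 20 members more positive in carriers (median difference 0.11; 48.3% of all genes positive). The median was 0.07 without replicate 2 of hypoxic Col. An unadjusted p under 0.05 was reached by 4, beside 3.99% of all genes. That number was 2 without replicate 1 of hypoxic vq1, replicate 2 of hypoxic vq10 or replicate 2 of normoxic Col. FLS2 (AT5G46330), the flagellin receptor, had 3.49, 6.4 and 8.69 CPM in hypoxic carriers, against 1.52, 2.85 and 4.4 CPM in hypoxic non-carriers. In normoxia it had 23.8, 27.4 and 38.3 CPM in carriers, against 20.7, 26.8 and 30.3 CPM in non-carriers. FLS2 fell in both sets, by 2.25 in carriers and by 3.22 in non-carriers, a difference in response of 0.97 ± 0.27 (unadjusted p = 0.0016). The wall-associated kinase WAK2 had 9.62, 14.8 and 19.2 CPM in hypoxic carriers, against 5.92, 7.42 and 11.1 CPM in hypoxic non-carriers, and a difference of 0.73 ± 0.24. Both receptors overlapped between the hypoxic sets. In hypoxia alone they were called higher in carriers, FLS2 by 1.18 (adjusted p = 0.0137) and WAK2 by 0.87 (adjusted p = 0.0314), with adjusted p of 0.0694 and 0.335 without the 3 vq10 libraries.

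The core hypoxia genes responded strongly with and without the allele. Of 40, 38 rose in carriers and 39 in non-carriers (25% and 27.2% of all tested genes), with median responses of 3.93 and 3.83. Their median difference was 0.22, with 30 positive (48.3% of all genes), 4 more positive at an unadjusted p under 0.05 and 1 more negative, beside 3.99% and 4.58% of all genes. The median was 0.12 without replicate 2 of normoxic Col and 0.14 without replicate 3 of normoxic vq10. The 4 became 1 without replicate 1 or 2 of hypoxic vq1, replicate 2 of hypoxic vq1vq10 or replicate 2 of normoxic Col, and 2 without replicate 2 of hypoxic Col or replicate 1 or 3 of normoxic vq10. Summed over the list, hypoxic carriers had 7280, 8233 and 8736 CPM, against 6428, 7098 and 8375 CPM in hypoxic non-carriers, with overlap.

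Fermentation and sugar breakdown had a median difference of 0.20 over 21 genes, 16 of them positive, where 48.3% of all genes were. An unadjusted p under 0.05 was reached by 4, beside 3.99% of all genes, by 2 without replicate 1 or 2 of hypoxic vq1, replicate 2 of hypoxic vq1vq10, replicate 2 of normoxic Col or replicate 3 of normoxic vq10, and by 7 without replicate 1 of normoxic vq1vq10. AlaAT1, an alanine aminotransferase that makes alanine when oxygen is low, had 319, 377 and 410 CPM in hypoxic carriers, against 263, 283 and 343 CPM in hypoxic non-carriers. It rose by 1.71 in carriers and by 1.44 in non-carriers, a difference of 0.27 ± 0.11. The difference was 0.28 for GAPC2, a cytosolic glyceraldehyde phosphate dehydrogenase, and 0.29 for the lactate or malate dehydrogenase AT4G17260. Of the 16 oxygen-sensing genes, ATE2, an arginyl transferase of the N-degron pathway, had -0.29 and the median was 0.03.

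Abscisic acid, cold and drought genes had more negative responses in carriers for 28 of 29 tested members, where 48.3% of all tested genes were positive. The median difference was -0.29, and 4 members had an unadjusted p under 0.05, beside 4.58% of all genes in that direction. Without replicate 1 of hypoxic vq1 the median was -0.12 and 11 members were positive, and without replicate 1 of hypoxic vq10 the median was -0.47. The 4 ran from 0, without replicate 1 of hypoxic vq1 or replicate 2 of normoxic Col, to 7, without replicate 1 of hypoxic vq10. In all, 14 of the 24 libraries moved it when left out. It was also 0 without the 3 vq10 libraries, where the median was -0.16. With all libraries 21 members rose in carriers and 25 in non-carriers, where 25% and 27.2% of all tested genes did. The homeodomain factor HB-12 had a difference of -0.62 and the ABRE-binding factor ABF4 one of -0.26. Circadian clock genes had 20 of 23 negative values and a median of -0.16, with 2 at an unadjusted p under 0.05 (4.58% of all genes), with PRR7 at -0.24 and the blue-light receptor FKF1 at -0.53.

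The 16 nucleolar ribosome biogenesis genes all had positive values, where 48.3% of all genes did, with a median of 0.24. An unadjusted p under 0.05 was reached by 3, beside 3.99% of all genes, a number that ran from 1 to 9 as single libraries were left out, 14 of which moved it (highest without replicate 1 of normoxic vq1). In carriers 4 of them rose and 0 fell, where 25% and 25.2% of all genes did, and in non-carriers 2 rose and 7 fell, where 27.2% and 26.8% did. The flavonoid list had a median difference of 0.34 over 19 genes, which was 0.21 without replicate 3 of hypoxic Col. It was 0.44 for vq10 against Col-0 and 0.05 for vq1vq10 against vq1. An unadjusted p under 0.05 was reached by 4, beside 3.99% of all genes, and 4CL3, a coumarate CoA ligase, had 0.62.

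Several lists that VQ proteins are known for lay near the median of all genes. The median difference was -0.04 for 30 WRKY factors, -0.04 for 27 other VQ genes and -0.03 for 26 salicylic acid genes, with 0, 1 and 0 members at an unadjusted p under 0.05. For other lists the median was -0.08 for photosynthesis (9 of 37 positive), -0.06 for ethylene (9 of 21) and 0.08 for heat shock (16 of 25). It was 0.06 for the unfolded protein response (10 of 14 positive) and 0.17 for the mitochondrial retrograde response (9 of 13). Of all tested genes 48.3% were positive. The 1 VQ gene was AT3G15300, with -0.40.

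**Figure D5:**
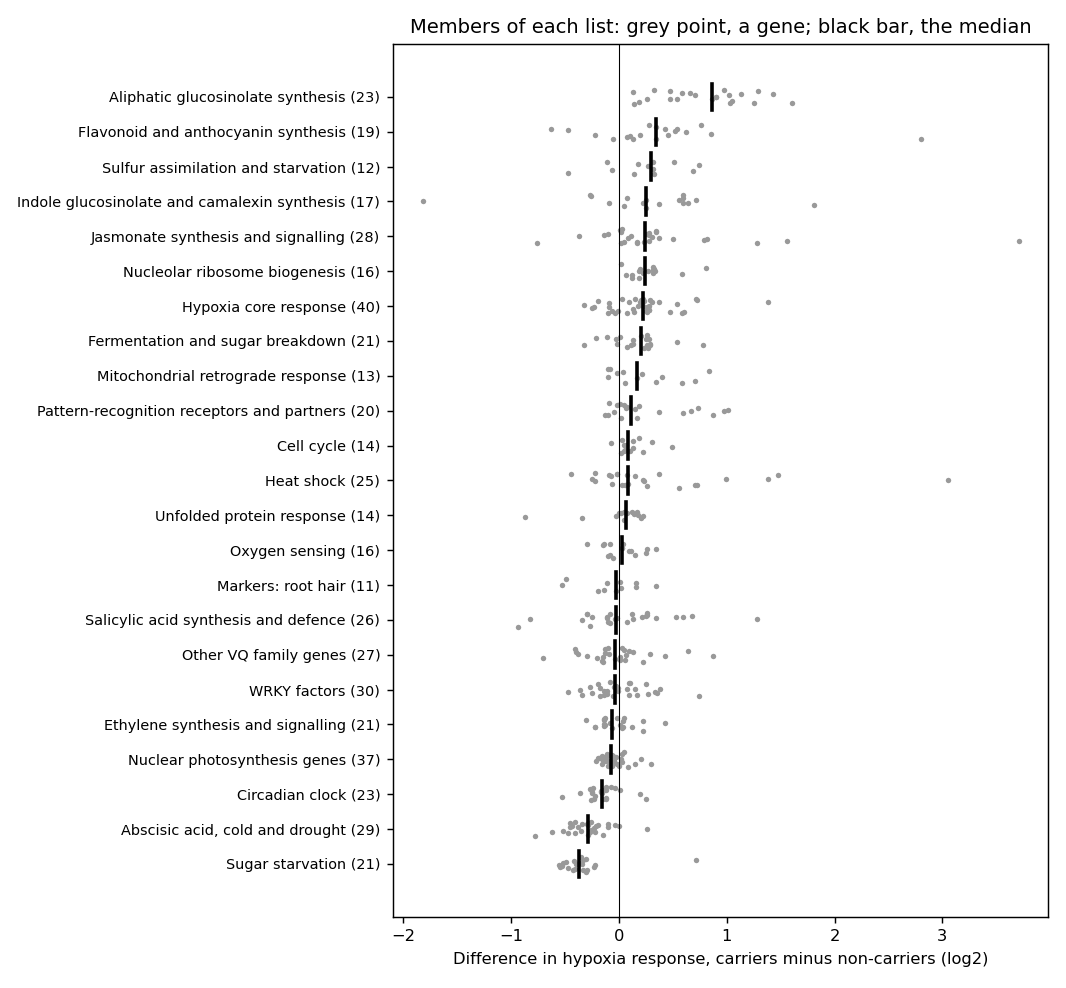
Difference in response (log2, carriers minus non-carriers) of each tested member of the 23 lists with more than 10 tested genes, with list sizes in parentheses and medians as black bars. Among these lists aliphatic glucosinolate synthesis has the highest median (0.86) and sugar starvation the lowest (-0.37).

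Other cell types were followed with the marker lists. The 11 root hair genes summed to 43.1, 54.8 and 69.5 CPM in hypoxic carriers, against 51.2, 63.2 and 66.0 CPM in hypoxic non-carriers, and to 87.4, 115 and 187 CPM in normoxic carriers, against 132, 148 and 189 CPM in normoxic non-carriers. They overlapped at both oxygen levels, and their median difference in response was -0.03. The 7 stomatal lineage genes had a median of 0.23, which was 0.14 without replicate 1 of normoxic Col, and the 6 root tissue genes one of -0.08. Of 5 senescence markers 4 were tested, all with negative values, as most of the sugar starvation list had. Their median was -0.25, and -0.16 without replicate 2 of hypoxic vq10, with -0.46 for vq10 against Col-0 and -0.03 for vq1vq10 against vq1. They summed to 18.9, 25.7 and 34.0 CPM in hypoxic carriers, against 20.1, 24.5 and 31.9 CPM in hypoxic non-carriers, with overlap. The part of cell composition in the list results was not tested.

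By rank over all genes with a mean log2 CPM of at least 1, the 12 with the smallest p and a more positive response in carriers were NPC6, RGL1, OPCL1, LAC10, AT3G25430, BDG1, FAD3, BAT5, AT2G30766, MYB29, AT1G76520 and AT5G64850. All had an adjusted p of 0.482. For the 2 aliphatic genes, every hypoxic carrier library lay above every hypoxic non-carrier library, where 0.443% of all tested genes did so. These 12 were also picked by their p in the same libraries, which favours such parting, so the share is no test. The other 10 overlapped in hypoxia. In normoxia every carrier lay below every non-carrier for AT3G25430, as for 0.164% of all tested genes. NPC6, a non-specific phospholipase C, had 20.4, 27.1 and 33.2 CPM in hypoxic carriers, against 19.6, 20.7 and 25.1 CPM in hypoxic non-carriers. In normoxia NPC6 had 13.6, 16.6 and 17.9 CPM in carriers, against 16.6, 20.4 and 23 CPM in non-carriers. Its difference of 0.63 ± 0.14 thus came from both oxygen levels, with carriers above in hypoxia and below in normoxia.

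The laccase LAC10 had 1.28, 2.29 and 3.38 CPM in hypoxic carriers, against 0.699, 1.26 and 1.8 CPM in hypoxic non-carriers, and a difference of 1.21 ± 0.28. FAD3, an omega-3 fatty acid desaturase of the endoplasmic reticulum, had 73.9, 88.4 and 104 CPM, against 59.9, 71.8 and 80.5 CPM, and a difference of 0.50 ± 0.12. Both pairs of ranges overlapped. The difference was 0.58 for RGL1, a DELLA repressor of gibberellin signalling, and 0.46 for BDG1, a hydrolase needed for the cuticle. It was 0.66 for AT3G25430, 0.61 for AT5G64850 and 0.42 for AT1G76520, annotated to the auxin efflux carrier family. AT2G30766, annotated as an uncharacterized protein, had the largest of the 12 differences, 2.46 ± 0.60, with 6.04, 13.6 and 27 CPM in hypoxic carriers, against 3.03, 4.23 and 12.2 CPM in hypoxic non-carriers.

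The 12 with a more negative response in carriers were AT5G23750, AT1G62422, AT1G64590, CYP706A7, AT4G12690, CXXS1, AT3G25910, AT1G35190, AT3G61260, BT2, NADK1 and AT5G14410, again each at an adjusted p of 0.482. In 4 of them (CXXS1, AT3G61260, BT2 and NADK1) every hypoxic carrier lay below every hypoxic non-carrier, where 0.572% of all tested genes did so. The 12 were picked by their p in these same libraries, which favours such parting, so the share is no test. Remorins are plant proteins of plasma membrane domains, and 2 of the 12 were annotated to that family. AT5G23750 had 7.54, 8.97 and 11.6 CPM in hypoxic carriers, against 10.2, 13.4 and 17.8 CPM in hypoxic non-carriers, and 11.8, 13.2 and 14.5 CPM in normoxic carriers, against 9.03, 11.9 and 13.2 CPM in normoxic non-carriers. Its ranges overlapped and its difference was -0.78 ± 0.17 (unadjusted p = 0.00015). AT3G61260 had 158, 195 and 205 CPM in hypoxic carriers, against 218, 243 and 276 CPM in hypoxic non-carriers, and a difference of -0.51.

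CXXS1, a thioredoxin with a single cysteine in its active site, had 18.8, 21.6 and 25.8 CPM in hypoxic carriers, against 27.3, 28.6 and 29.7 CPM in hypoxic non-carriers. In normoxia CXXS1 had 15.4, 16.6 and 19 CPM in carriers, against 14.1, 17 and 17.9 CPM in non-carriers. It rose in both sets, by 0.41 in carriers and by 0.80 in non-carriers, a difference of -0.39 ± 0.10. NADK1, an NAD kinase, had 25.9, 27.4 and 29 CPM in hypoxic carriers, against 29.4, 33.2 and 34.5 CPM in hypoxic non-carriers, and a difference of -0.30. The differences of the other 7 ran from -1.0 for AT1G64590 to -0.29 for AT3G25910.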

How the data were processed

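Whole-seedling RNA was made into MGIEasy libraries for sequencing, per the labels' protocols. Alignment tools are listed as HISAT2 2.0.4 with the build TAIR10, per the submitters' processing notes, beside DESeq2. How reads were counted per gene, and with what strand setting, is not given in the sources used here. The deposited tables hold, per the file headers, estimated counts per gene, of which 525 to 581 a library were not whole and were rounded, and TPM and FPKM values, which entered no test. Of 23929 genes in the files, 20110 passed edgeR's filterByExpr over the 8 groups. edgeR 4.0.16 in R 4.3.3 was used with TMM scaling and a quasi-likelihood model holding oxygen, the vq1 label, the vq10 allele and both products with oxygen, over all 24 libraries. A model of 8 group means gave the per-background and three-way terms. The code was tested on simulated data. The labels name the replicates biological, and p-values measure the spread between them. The most similar replicate pair still had a chi-square per degree of freedom of 5.97, so none were merged.

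Members and lists were chosen with earlier results of these data known. The genes named were VQ1, VQ10, the 12 smallest p-values in each direction with a mean log2 CPM of at least 1 (none passed 0.05 adjusted), the 2 smallest in each list and the 5 tested genes on either side of VQ10. Named genes with a median under 5 reads in any set of 6 were given no difference (WOX5, AT1G56650 and the run beside VQ10). The other list members and the iron genes were chosen after their values were seen. Of 534 list loci 532 were in the tables. AOP2 and AOP3 were not analysed here. Alternatives were other scaling, no filter, other models, DESeq2 1.42.0, limma 3.58.1 voom and each library left out.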

Additional observations from a re-analysis of the deposited data

Results flagged for a closer look

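In 12 of 276 sets of 6 libraries (4.35%), 1 library stood apart from the other 5 by Dixon's ratio, above its 95% critical value. Chance does this in about 1 set in 20. No cause was tested for any of them.

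Among single genes, BT2 had 247 CPM in replicate 2 of hypoxic vq10, with the nearest other hypoxic carrier at 322 CPM. AT2G30766 had 6.96 CPM in replicate 1 of normoxic vq10, with the nearest normoxic carrier at 3.21 CPM. IRT1, the root iron transporter, had 50.2 CPM in replicate 3 of hypoxic vq10, against 17.2 CPM in the nearest hypoxic carrier. In non-carriers, CYP79F1 had 47.6 CPM in replicate 1 of normoxic Col (nearest 19.7 CPM) and AT3G25430 had 6.22 CPM in its replicate 2 (nearest 4.72 CPM). FAD3 had 81.5 CPM in replicate 1 of normoxic vq1, with the nearest at 105 CPM. BHLH100 had 5.65 CPM in replicate 3 of hypoxic Col, with the nearest at 1.65 CPM.

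Among summed lists, the circadian clock genes had 2433 CPM in replicate 2 of hypoxic vq10, with the nearest hypoxic carrier at 2798 CPM. The photosynthesis genes had 209790 CPM in replicate 2 of normoxic vq10, with the nearest at 195420 CPM. The salicylic acid genes had 263 CPM in that library (nearest 191 CPM) and 364 CPM in replicate 2 of hypoxic vq1 (nearest 265 CPM). The oxygen-sensing genes had 833 CPM in replicate 2 of normoxic Col, with the nearest at 703 CPM.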

How the results depend on the processing

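The count of 0 genes with a different response was also reached with RLE scaling (1707 genes at an unadjusted p under 0.05), without the filter (1822), with 8 group means (1697), with voom (1706), with vq10 and Col alone (1179), with vq1vq10 and vq1 alone (1031), without the 3 vq10 libraries with reads beside VQ10 (888) and in 24 fits without 1 library each (1284 to 2316). DESeq2 called 1 gene, and that 1 was lower in carriers: PRA1.F4, with 0 reads in all hypoxic carriers and 24 in each hypoxic non-carrier (DESeq2 adjusted p = 0.000257, edgeR 0.528). In normoxia PRA1.F4 had 94 reads in replicate 3 of vq10, a carrier, and 47 and 24 in replicates 1 and 3 of vq1. It had 0 in the other normoxic libraries. Same-numbered libraries did not deviate together in every pair (20 of 36 within an oxygen level had r over 0.1, median 0.116, against -0.0592 for other numbers, and 0 of 12 across oxygen levels), though 20 of 24 libraries were closest to their own number, a hint from the data and not the design, so the numbers were not taken as pairs; the replicate block gave 0 called and 1751 unadjusted. A replicate block within each oxygen level called 1 gene, and that 1 was higher in carriers, AT2G30766 (adjusted p = 0.0126, 1976 unadjusted). For the vq1 label DESeq2 called 2 genes and the fits without 1 library 0 to 1. For the difference within hypoxia, 47 calls became 183 with DESeq2, 11 without the 3 vq10 libraries and 22 to 141 without 1 library. The sign turned for CRA1 with DESeq2 (0.90), 8 group means (0.99), vq10 and Col alone (6.39) and without 1 library (-2.02 to 1.91). It turned for AT1G78410 with vq10 and Col alone (0.0189), for NAC6 with vq1vq10 and vq1 alone (0.0350), and without 1 library for AT1G17147 (-0.0617 to 0.15) and GSTU22 (-0.14 to 0.0050). The cause was not tested. All 24 genes ranked by p kept their sign in 34 alternatives. They were picked by p in the same data, and most alternatives reuse nearly all libraries, so a kept sign was favoured beforehand. Depth limits low genes: under a mean log2 CPM of 0 the median interval reached 1.1 to either side.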

Other observations

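Iron genes were looked at after their values were seen and carry no test. Of 10, 8 had a more positive response in carriers (48.3% of all genes did) and 2 a more negative one. In both backgrounds 9 had the same sign, as did 58.4% of all genes. Picking the genes by their values favours such counts. The adjusted p-values from edgeR's quasi-likelihood test ran from 0.482 to 0.748. BHLH100, one of a group of transcription factors induced by iron deficiency, had 1.52, 3.52 and 25.3 CPM in hypoxic carriers, against 0.770, 1.42 and 5.65 CPM in hypoxic non-carriers. In normoxia BHLH100 had 0.167, 0.536 and 1.38 CPM in carriers, against 0.0429, 1.19 and 3.57 CPM in non-carriers. These ranges overlapped at both oxygen levels, and the difference in response was 3.06 ± 0.98. Replicate 3 of hypoxic vq10 and replicate 3 of hypoxic vq1vq10 had 25.3 and 15.9 CPM, and the other 4 hypoxic carriers 1.52 to 4.19 CPM. The difference was 2.32 for bHLH38, 1.55 for bHLH39 and 2.16 for BHLH101 of the same group, in each of which the same 2 libraries were the highest hypoxic carriers.

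OPT3, which moves iron in the phloem, had 104, 133 and 164 CPM in hypoxic carriers, against 73.3, 91.0 and 117 CPM in hypoxic non-carriers, and a difference in response of 0.70 ± 0.18. IRT1, the iron uptake transporter of roots, had 7.85, 14.0 and 50.2 CPM in hypoxic carriers, against 19.8, 35.8 and 77.0 CPM in hypoxic non-carriers. Its difference was -1.31 ± 0.50, and that of its regulator FRU was -0.57. Both genes overlapped between the hypoxic sets.

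Some genes differed between carriers and non-carriers at both oxygen levels by like amounts. AT5G24240 was higher in carriers by 3.58 in hypoxia (adjusted p = 8.9e-07) and by 3.44 in normoxia (adjusted p = 2.9e-07). AT5G35940 was higher by 1.87 and by 1.73. COR413-PM2 was lower, with -0.60 in hypoxia and -0.56 in normoxia, and CYP708A3, which lies just past the run beside VQ10, with -4.02 and -4.47. FLC, a repressor of flowering, was higher by 0.86 in hypoxia (adjusted p = 0.00906), and its normoxic difference of 0.52 had an adjusted p of 0.753.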
